A study of Mus musculus with 4 samples.

Results

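Levels of 40 genes of skeletal muscle contraction and calcium handling were compared between dorsal skin of wild type mice and of bitransgenic mice at postnatal day 16. The bitransgenic mice overexpressed deltaNp63alpha, a p63 isoform of basal keratinocytes. The 40 genes were taken from a list of muscle genes by their symbol in the platform annotation, and all 40 had at least 1 probe set of their own on the mouse whole-genome array, out of 18193 genes with probe sets of 1 symbol. Together they were read by 64 probe sets. A further 2 probe sets read a listed gene together with another gene and were left out. Each genotype had 2 arrays, and each array held skin of 1 animal (n = 2 per group throughout). The animals are called wild type 1 and 2 and bitransgenic 1 and 2, by the replicate number of the labels. Neither the promoter behind the transgene nor any inducing treatment is named in the sources used here. In bulk tissue, fewer muscle fibres in the piece and less RNA per fibre cannot be told apart.

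A muscle fibre contracts when myosin heads of the thick filament pull on actin of the thin filament. Calcium starts this by binding troponin, and it is released from the sarcoplasmic reticulum by the ryanodine receptor and pumped back by a calcium ATPase. Most sarcomere proteins come in a fast and a slow form, each from its own gene, so that the forms expressed tell fast from slow fibres. In mice, a thin striated muscle sheet called the panniculus carnosus lies under the dermis and fat of the back, and a piece of dorsal skin can include it. The genes are described below as 13 fast forms, 7 slow forms, 2 developmental myosins, 16 genes shared by fibre types and 2 transcription factors of the muscle lineage.

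The control regions of these genes are known for E-boxes, the sites of the MyoD family. The 250 bases upstream of the transcription start are shown for the 6 genes that fell in bitransgenic skin and hold the E-box CAGCTG there. The letters are 5′ to 3′ on the strand of the gene, from RefSeq promoters of build GRCm38.p6, with CAGCTG in capitals. Myh4 lies at chr11:67237562-67237811 (plus strand), Myl1 at chr1:66945057-66945306 (minus strand), Mylpf at chr7:127211358-127211607 (plus strand), Atp2a1 at chr7:126463074-126463323 (minus strand), Acta1 at chr8:123894776-123895025 (minus strand) and Ckm at chr7:19410844-19411093 (plus strand).
Myh4: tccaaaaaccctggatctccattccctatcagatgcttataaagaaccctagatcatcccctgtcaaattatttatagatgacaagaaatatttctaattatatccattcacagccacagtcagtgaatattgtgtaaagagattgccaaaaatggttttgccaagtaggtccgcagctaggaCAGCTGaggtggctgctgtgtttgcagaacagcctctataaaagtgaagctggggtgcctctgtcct
Myl1: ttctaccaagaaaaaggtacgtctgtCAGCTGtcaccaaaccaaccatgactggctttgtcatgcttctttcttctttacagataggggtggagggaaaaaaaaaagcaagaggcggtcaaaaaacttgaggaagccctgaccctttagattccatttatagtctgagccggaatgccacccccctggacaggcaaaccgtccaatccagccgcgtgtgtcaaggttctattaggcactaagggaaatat
Mylpf: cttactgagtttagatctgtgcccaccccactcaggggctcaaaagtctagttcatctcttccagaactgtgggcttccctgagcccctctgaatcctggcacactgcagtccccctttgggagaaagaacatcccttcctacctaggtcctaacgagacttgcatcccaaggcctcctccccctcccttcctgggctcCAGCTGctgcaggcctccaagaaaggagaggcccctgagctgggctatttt
Atp2a1: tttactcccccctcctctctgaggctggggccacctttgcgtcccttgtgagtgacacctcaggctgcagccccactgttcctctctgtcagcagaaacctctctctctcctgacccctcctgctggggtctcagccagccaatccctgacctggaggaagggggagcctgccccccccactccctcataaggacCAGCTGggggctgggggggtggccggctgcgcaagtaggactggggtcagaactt
Acta1: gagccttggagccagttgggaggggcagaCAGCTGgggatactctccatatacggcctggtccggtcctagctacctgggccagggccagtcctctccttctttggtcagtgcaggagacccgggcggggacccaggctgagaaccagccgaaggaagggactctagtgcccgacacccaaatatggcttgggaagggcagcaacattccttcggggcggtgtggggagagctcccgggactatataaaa
Ckm: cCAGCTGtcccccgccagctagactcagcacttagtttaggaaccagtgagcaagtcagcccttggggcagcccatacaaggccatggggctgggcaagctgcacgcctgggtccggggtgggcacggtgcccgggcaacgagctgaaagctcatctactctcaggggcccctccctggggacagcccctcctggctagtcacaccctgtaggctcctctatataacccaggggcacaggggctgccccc
These windows were found for 31 of the 40 genes, in 38 windows, since some genes have several starts. The letters CAGCTG, which read the same on both strands, were in 16 of the 38 windows (42.1%), against 13.0% of all 32851 windows of that length. The 16 windows belong to 14 genes. The MEF2 consensus, searched on both strands, was in 5 of the 38 windows (13.2%, against 2.92% of all) and the CArG box in 5 (13.2%, against 1.47%). The looser E-box CANNTG, of which CAGCTG is a case, was in 84.2% of the windows and in 66.2% of all. Of the 9 genes that fell, 8 had a window, and those of Myh1 and Tnnc2 held no CAGCTG. A match describes letters in the window and is not a measured binding site.

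The deposited signals share a common scale, and the median signal of an array lay between 97.9 and 113.1. Of 4 probe sets of Trp63, the gene of the transgene, the 2 that were low in wild type skin read 161 to 838 there and 4644 to 15247 in bitransgenic skin. The other 2 overlapped between the genotypes. They read 4968 and 5812 in wild type against 5176 and 5302, and 1891 and 507 against 1572 and 379. The ratio of 3′ to 5′ signal of Gapdh, a sign of RNA integrity, was 1.55 in wild type 1 and lay between 0.931 and 1.02 in the other 3 arrays. That of beta-actin lay between 1.53 and 1.70. Wild type 1 and bitransgenic 2 had high signal of the Y-linked gene Eif2s3y (1922 and 1212), and the other 2 arrays had high Xist. The arrays of each genotype thus differed in these sex-linked genes. Sex and other differences between the animals of a genotype cannot be told apart.

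Of the 40 genes, 9 fell in bitransgenic skin and none rose. The 9 were 7 fast forms (Myh4, Myh1, Myl1, Mylpf, Tnni2, Tnnc2 and the calcium pump gene Atp2a1) and 2 shared genes (the skeletal actin gene Acta1 and the creatine kinase gene Ckm). A further 28 did not pass, and 3 (Myh3, Myh7 and Myl2) were too dim to be tested. A fall is a lower level at an adjusted p of 0.05 or less in limma, fitted over 13070 genes. In that fit, 1.58% of all genes fell and 0.750% rose. At an unadjusted p under 0.05, 29 of the 37 muscle genes tested were lower and 0 higher, against 9.76% and 6.91% of all genes tested. The filter on dim probe sets used the mean over all 4 arrays. A gene dim in bitransgenic skin could thus be tested because of its wild type signal. Mylk2 and Cacna1s, both among the 29, had mean bitransgenic signals of 46.6 and 46.85, below the filter signal. How far this raised the count of 29 was not tested. With each probe set tested by itself, 53 of the 64 were bright enough to test. Of these, 2 fell, those of Myl1 and Tnnc2, and 0 rose, against 0.555% and 0.207% of 27022 probe sets tested. The number of muscle genes that fell depended on single arrays and on settings. It was 16 without wild type 1 (2.53% of all genes fell), 31 without wild type 2 (4.86%), 1 without bitransgenic 1 (0.735%) and 4 without bitransgenic 2 (0.949%). Each such fit has 1 array in a genotype, which is assumed to vary like the other genotype's pair, so these counts also follow how far apart the remaining pair lies. The number was 2 with no filter on dim probe sets (0.726% of all genes) or with no intensity trend (1.18%). In both settings the 2 were Myl1 and Tnnc2. Myh4 missed the threshold in both (limma adjusted p = 0.0509 and 0.0552).

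**Figure D1:**
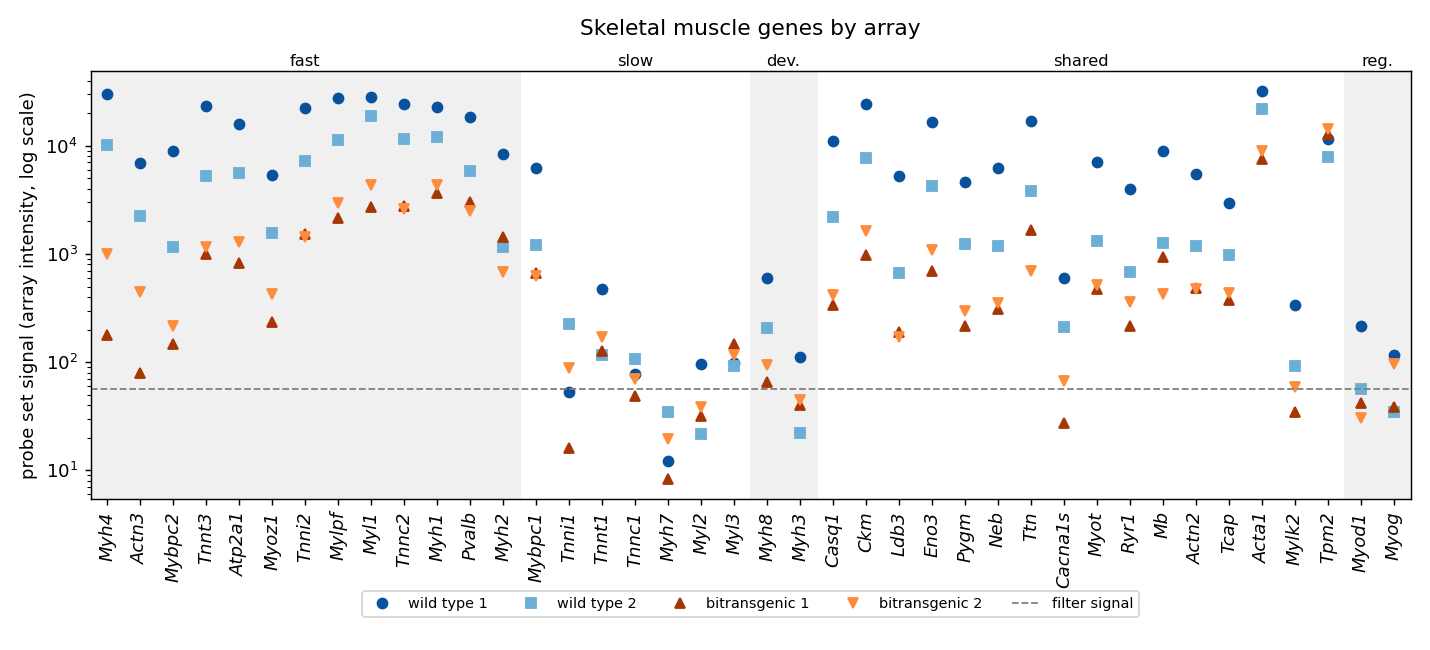
Signal of each of the 40 muscle genes (array intensity, log axis) on each of the 4 arrays, by class and then by genotype difference. Each marker is 1 animal and the dashed line is the signal of the filter, 57.0. Wild type 1 is highest for 35 of the 40 genes, against 4006 of the 13070 genes tested. Tpm2 and Myl3 are the genes with both bitransgenic arrays above both wild type arrays, which held for 3119 of the 13070.

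Both wild type arrays lay above both bitransgenic arrays for 31 of the 40 genes. Among all genes tested this held for 24.9%. The order was also shared within genotypes: wild type 1 was highest and wild type 2 second for 30 of the 40 genes, against 15.2% of genes tested. Over the 40 genes the median log2 difference, bitransgenic minus wild type, was -2.44, or 5.42-fold lower, while over all genes tested it was 0.0053. The median was -1.49 without wild type 1 and -3.30 without wild type 2. All differences and folds are on the scale of log2(signal + 16), which makes changes of dim genes look smaller.

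The largest fall was that of Myh4, the myosin heavy chain of the fastest (type IIb) fibres. Its signal was 29818 and 10102 in wild type 1 and 2, and 180.2 and 992 in bitransgenic 1 and 2. Both wild type animals stood far above both bitransgenic animals, which also differed from each other. The log2 difference was -5.29 ± 0.82 (SE), or 39.1-fold lower (adjusted p = 0.0323). The second Myh4 probe set, which is dimmer, read 879 and 292 against 20.7 and 43.6. Myh1, the heavy chain of type IIx fibres, fell less, from 23013 and 12043 to 3633 and 4362 (4.17-fold lower, -2.06 ± 0.35, adjusted p = 0.0408). The 95% interval was -7.26 to -3.32 for Myh4 and -2.89 to -1.23 for Myh1. The log2 ratio of Myh4 to Myh1 was 0.37 and -0.25 in wild type, against -4.22 and -2.12 in bitransgenic skin. An exact permutation test of this change gave p = 0.333 (two-sided), the smallest that 2 arrays against 2 allow. Heavy chain genes are close relatives in sequence, and the Myh1 probe set has the suffix _x_at, given to probe sets that may read related transcripts. Its sister probe set, with another suffix, read 22550 and 11969 against 3425 and 4233. Another Myh1 probe set stayed below the filter, at 9.40 or less.

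Myh2, the heavy chain of the more oxidative type IIa fibres, did not pass. Its signal was 8362 and 1169 in wild type, against 1440 and 684 in bitransgenic skin, so the groups overlapped (-1.64 ± 0.87, adjusted p = 0.421). Wild type 1 stood 7.07-fold above wild type 2 for this gene, and bitransgenic 1 lay above wild type 2.

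Both fast myosin light chains fell, as did Myh4 and Myh1 but not Myh2 among the fast heavy chains. Myl1, the essential light chain, read 28012 and 18796 in wild type, against 2738 and 4291 in bitransgenic skin (6.67-fold lower, -2.74 ± 0.32, adjusted p = 0.0152). This was the smallest adjusted p of the 40 genes, and the 2 wild type animals differed by 1.49-fold only. Mylpf, the regulatory light chain, read 27628 and 11265 against 2152 and 2972 (6.94-fold lower, -2.79 ± 0.44, adjusted p = 0.0339). Mybpc2, the fast myosin-binding protein C that links thick and thin filaments, read 8971 and 1160 against 148.6 and 215. Its groups did not overlap and its value was large, but so was the spread of wild type (-4.06 ± 0.87, adjusted p = 0.0766).

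The fast troponins are the calcium switch of the thin filament. Tnnc2, the calcium-binding subunit, read 24325 and 11540 in wild type, against 2795 and 2597 in bitransgenic skin (6.19-fold lower, -2.63 ± 0.37, adjusted p = 0.0241). Tnni2, the inhibitory subunit, read 22383 and 7169 against 1517 and 1445 (8.48-fold lower, -3.08 ± 0.51, adjusted p = 0.0372). In both genes the 2 bitransgenic animals were close to each other and well below wild type. Tnnt3, the tropomyosin-binding subunit, read 23286 and 5269 against 1002 and 1156. Its value of -3.34 ± 0.64 missed the threshold (adjusted p = 0.0581).

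At the Z-disc, which anchors the thin filaments, no gene passed, although all 7 had both wild type arrays above both bitransgenic arrays (24.9% of all genes tested did). All 7 were lower at an unadjusted p under 0.05 (9.76% of all genes were), with a median log2 difference of -2.89. Actn3, the alpha-actinin of fast fibres, read 6973 and 2242 in wild type, against 78.8 and 448 in bitransgenic skin (-4.24 ± 0.82, adjusted p = 0.0602). As with Myh4, bitransgenic 1 was the lowest array by a wide margin. Myoz1, a calcineurin-binding protein of the fast Z-disc, read 5393 and 1557 against 235 and 429 (-3.12 ± 0.60, adjusted p = 0.0581). Actn2, the alpha-actinin of all fibres, read 5460 and 1195 against 482 and 479 (-2.37 ± 0.65, adjusted p = 0.133).

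Titin, the giant spring of the sarcomere, was read by 6 probe sets of Ttn. The brightest read 16829 and 3827 in wild type, against 1659 and 689 in bitransgenic skin (-2.89 ± 0.72, adjusted p = 0.111). All 6 had lower means in bitransgenic skin, with log2 differences from -3.13 to -0.53. Ldb3, which joins alpha-actinin to other Z-disc proteins, differed most between the wild type animals among the shared genes, at 5215 and 673 against 190.9 and 169.7 in bitransgenic skin (-3.28 ± 0.86, adjusted p = 0.122). The titin-binding gene Tcap and the myotilin gene Myot had values of -2.03 ± 0.51 and -2.58 ± 0.71.

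**Figure D2:**
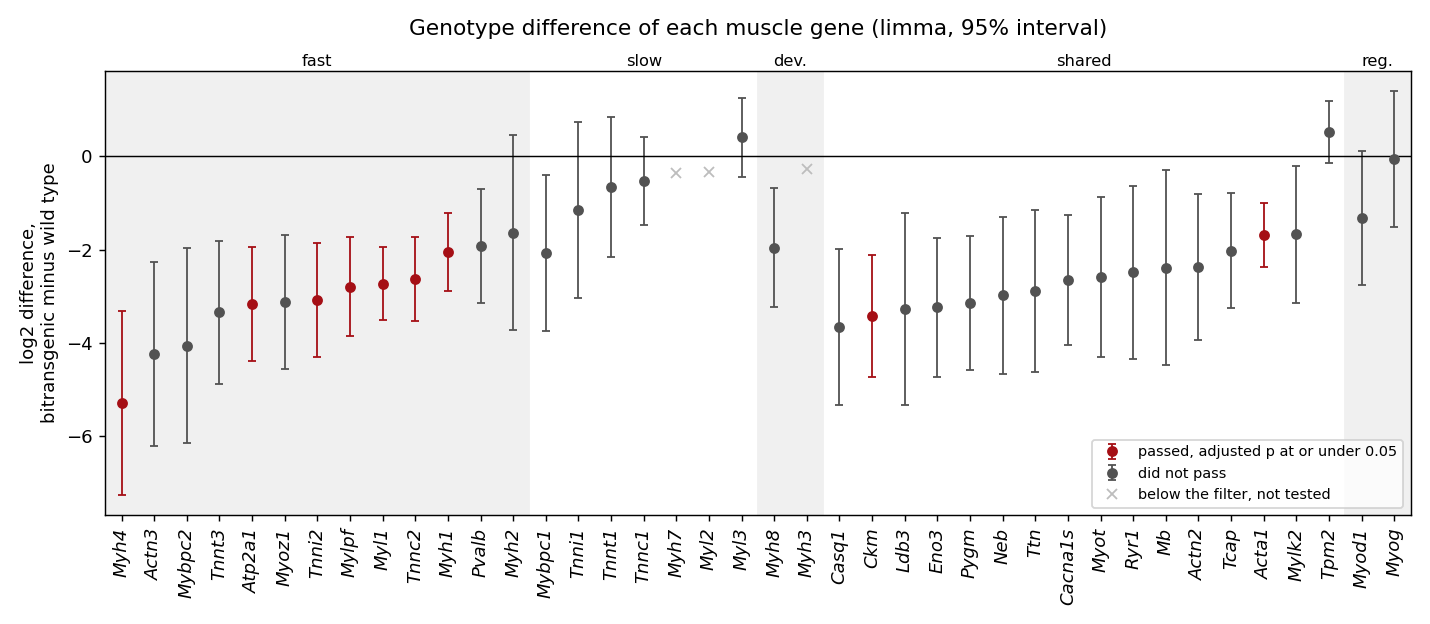
Log2 difference of each muscle gene, bitransgenic minus wild type, by class; points are limma estimates and bars their 95% intervals. The 9 genes that fell are in red, Myh4 is lowest at -5.29, and the tested slow forms other than Mybpc1, from -1.15 for Tnni1 to 0.41 for Myl3, have intervals that include 0.

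Genes of calcium handling were lower as well, and 1 of 5 passed (1.58% of all genes fell). Atp2a1, the fast calcium pump of the sarcoplasmic reticulum, read 15955 and 5539 in wild type, against 832 and 1290 in bitransgenic skin (8.95-fold lower, -3.16 ± 0.51, adjusted p = 0.0356). Casq1, the calcium store protein calsequestrin, read 11155 and 2182 against 338 and 417 (-3.66 ± 0.70, adjusted p = 0.0581). Ryr1, the release channel, read 3959 and 678 against 214 and 363 (-2.49 ± 0.77, adjusted p = 0.172). Cacna1s, the voltage sensor that opens that channel, read 597 and 213 against 27.2 and 66.5 (-2.65 ± 0.58, adjusted p = 0.0816). Pvalb, the calcium buffer of fast fibres, had the smallest difference of the 5, from 18247 and 5895 to 3001 and 2482 (-1.92 ± 0.51, adjusted p = 0.124). All 5 had both bitransgenic arrays below both wild type arrays (24.9% of all genes tested did). They were also lower at an unadjusted p under 0.05 (9.76% of all genes were). The mean bitransgenic signal of Cacna1s, 46.85, lay below the filter signal of 57.0, so its wild type signal brought it into the test.

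Of the energy genes, Ckm fell. Its enzyme, muscle creatine kinase, rebuilds ATP from phosphocreatine. Its signal was 24154 and 7756 in wild type, against 983 and 1617 in bitransgenic skin (10.7-fold lower, -3.42 ± 0.54, adjusted p = 0.0345). The second Ckm probe set, which is dimmer, read 411 and 89.4 against 55.7 and 73.8. In the limma fit of probe sets it did not pass (-1.40 ± 0.68, adjusted p = 0.491). With the mean of the kept probe sets per gene, Ckm did not pass either (-2.41, adjusted p = 0.119). Eno3, the muscle enolase, and Pygm, the muscle glycogen phosphorylase, had values of -3.24 ± 0.62 and -3.15 ± 0.60 (adjusted p = 0.0581 for each). Mb, the oxygen-binding myoglobin, read 8954 and 1268 against 938 and 425 (-2.39 ± 0.87, adjusted p = 0.239). A second Mb probe set stayed below the filter at 8.90 to 48.4.

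In the thin filament of all fibres, Acta1 fell from 32265 and 21644 to 7537 and 8959 (3.21-fold lower, -1.68 ± 0.28, adjusted p = 0.0408). Neb, which codes for the thin filament ruler nebulin, read 6200 and 1196 against 309 and 356 (-2.98 ± 0.70, adjusted p = 0.0966). Mylk2, the skeletal myosin light chain kinase, belongs with the thick filament. It was dim, at 341 and 92.0 against 34.7 and 58.5 (-1.68 ± 0.61, adjusted p = 0.241).

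Tpm2, which codes for beta-tropomyosin, stood apart among the shared genes. Its brightest probe set read 11601 and 7811 in wild type, against 12873 and 14372 in bitransgenic skin, so that both bitransgenic animals were higher (0.51 ± 0.27, adjusted p = 0.425). The next read 8729 and 4320 against 6580 and 7340, with overlap. The other 2 had the opposite direction. The dimmer of them read 3072 and 553 against 348 and 370 (-1.82), in the array order of the other muscle genes, and the brighter, with the suffix _x_at, read 9093 and 3287 against 1890 and 2969 (-1.20). Tropomyosin genes give several transcripts by splicing, some of them in smooth muscle and other cells. Which transcript each probe set reads was not tested. The mean of the 4 probe sets gave -0.58 (adjusted p = 0.604). Of 13 genes with several probe sets, 9 had a single direction in all of them, and the other 4 were Tpm2, Mb, Myl3 and Myod1. In Mb, Myl3 and Myod1 the deviating probe sets lay below the filter.

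Of the 7 slow forms, 5 were bright enough to test, and none of these passed limma's threshold (1.58% of all genes fell). Among the 5, 1 was lower at an unadjusted p under 0.05 (9.76% of all genes were). That was Mybpc1, the slow myosin-binding protein C, at 6278 and 1221 in wild type, against 674 and 627 in bitransgenic skin (-2.07 ± 0.69, adjusted p = 0.204). No signal of the other 6 slow forms exceeded 475.9. Tnnt1, the slow tropomyosin-binding troponin, read 475.9 and 117.2 against 127.0 and 170.4, so that wild type 1 alone was high (-0.65 ± 0.62, adjusted p = 0.672). Its value was 0.29 without wild type 1. Tnni1, the slow inhibitory troponin, was highest in wild type 2, with 52.7 and 227 against 16.2 and 89.2 (-1.15 ± 0.78). Tnnc1, the slow calcium-binding troponin, read 77.1 and 107.1 against 48.3 and 69.8 (-0.53 ± 0.39).

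The slow heavy chain gene Myh7 was at 8.30 to 34.7 on all 4 arrays, below the filter. Myl2, the slow regulatory light chain, read 96.0 and 21.8 against 32.0 and 38.8 and was not tested. Myl3, the slow essential light chain, read 97.6 and 92.7 against 147.6 and 116.7 (0.41 ± 0.35, adjusted p = 0.637). The median log2 difference of the 7 slow forms was -0.53, against -3.08 for the 13 fast forms and -2.62 for the 16 shared genes.

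Related genes were then set side by side as log2 ratios, 11 in all, of which 7 were a fast over a slow form of the same protein. For the 5 pairs whose slow form was bright enough to test, the mean ratio was lower in bitransgenic skin. The change was -3.14 for Myl1 over Myl3, -2.70 for Tnnt3 over Tnnt1, -2.10 for Tnnc2 over Tnnc1, -1.99 for Mybpc2 over Mybpc1 and -1.93 for Tnni2 over Tnni1. In the last pair the groups overlapped, with a ratio of 5.57 in bitransgenic 1, above the 4.89 of wild type 2. The values over Myh7 (-4.93 for Myh4) and over Myl2 (-2.45 for Mylpf) rest on slow forms too dim to test and say little of the slow form. The other 4 ratios were Myh4 over Myh1 (-3.23), Myh4 over Myh2 (-3.65), Actn3 over Actn2 (-1.87) and Tnni2 over Tpm2 (-3.60). Exact permutation tests (two-sided) gave p = 0.667 for Tnni2 over Tnni1 and p = 0.333 for the other 10, or 0.667 and 0.367 when adjusted over the 11. Several ratios share a gene, and the genes were chosen with their levels known. Since most slow forms lie near the filter signal of 57.0, their own differences can be understated. The median of the fast forms minus that of the slow forms was -2.56, and it was -1.53 without wild type 1 and -3.58 without wild type 2.

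The developmental myosins of embryonic and newborn muscle were dim. Myh8, the neonatal form, read 597 and 209 in wild type, against 65.8 and 95 in bitransgenic skin (-1.96 ± 0.53, adjusted p = 0.130), with no overlap. Myh3, the embryonic form, read 112.7 and 22.3 against 40 and 44.7 and was not tested. The transcription factors that start and drive the muscle program were dim too. Myod1 read 216 and 56.4 against 41.9 and 30.5 (-1.32 ± 0.60, adjusted p = 0.343). Myog, which acts in differentiating myoblasts, read 116.9 and 34.5 against 38.8 and 96.1, with overlap (-0.064 ± 0.61, adjusted p = 0.976). Its value was 0.63 without wild type 1 and 0.45 without bitransgenic 1.

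Animals of 1 genotype differed from each other in these genes, above all in wild type. Wild type 1 lay above wild type 2 with a median ratio of 3.11 over the 40 genes, while the median log2 difference of these animals was 0.013 over all genes tested. The median was 3.09 for fast forms, 4.15 for shared genes and 1.05 for slow forms. Bitransgenic 2 lay above bitransgenic 1 by a median log2 difference of 0.28 over the 40 genes. For 17 of the 31 genes with both wild type arrays above, the 2 wild type animals were farther apart than the nearest animals of the 2 genotypes. Among all genes tested, the same held for 1653 of the 3253 with both wild type arrays above, a similar share. Within the muscle genes it held for 2 of 12 fast forms, Mybpc2 and Pvalb, and for 11 of 15 shared genes. Relative to its mean over the 4 arrays, the median fast form stood at 2.34 and 0.72 in wild type, against -1.69 and -1.27 in bitransgenic skin (log2). The median shared gene stood at 2.51 and 0.26 against -1.46 and -1.26. All genes tested had medians between -0.026 and 0.025.

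**Figure D3:**
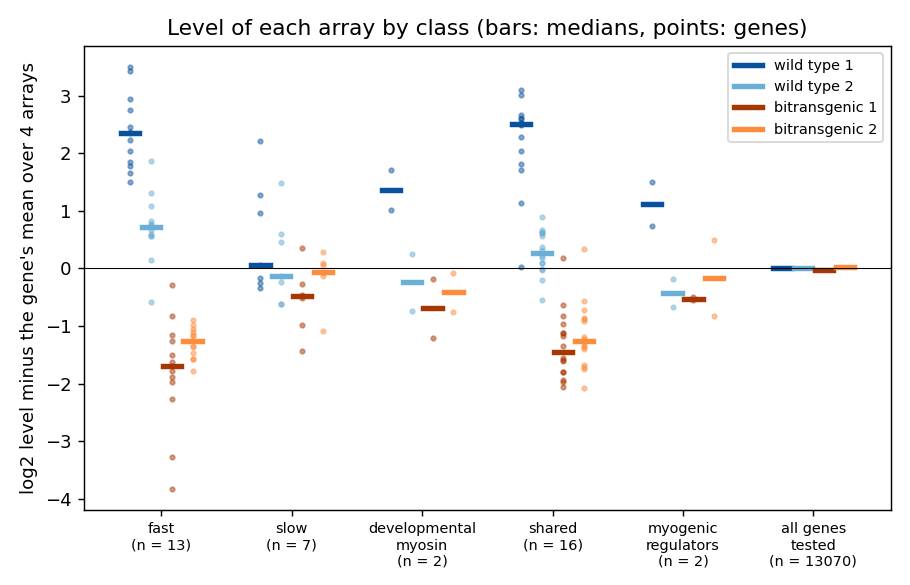
Log2 level of each gene relative to its mean over the 4 arrays (points), with the median of each class (bars), by array. Wild type 1 is highest for fast and shared genes, at medians of 2.34 and 2.51. The medians of the slow forms run from -0.47 in bitransgenic 1 to 0.06 in wild type 1, and those of all genes tested lie near 0.

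Of the 9 genes that fell, only Myh4 passed in all 4 fits that left out 1 array, with log2 differences from -6.47 to -4.11 and adjusted p values from 0.00327 to 0.0387. All 9 passed without wild type 2, and 8 passed without wild type 1, where Acta1 missed (adjusted p = 0.0577). Without bitransgenic 2, Myh4, Myl1 and Ckm passed. Without bitransgenic 1, Myh4 alone passed, and the adjusted p of the other 8 ran from 0.0505 for Myl1 to 0.191 for Acta1.

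Further genes of skeletal muscle were listed by role, 109 in all, of which 101 were on the array and 89 were bright enough to test. Of these, 2 fell in limma's fit and 0 rose, a share near the 1.58% of all genes that fell. At an unadjusted p under 0.05, 47 were lower and 0 higher, against 9.76% and 6.91% of all genes. Smpx, a small protein of the muscle membrane and Z-disc region, read 6626 and 1642 in wild type, against 250 and 334 in bitransgenic skin (-3.44 ± 0.62, adjusted p = 0.0486). Myf6, a muscle transcription factor of the MyoD family, read 524 and 286 against 43.9 and 77.2 (-2.43 ± 0.44, adjusted p = 0.0497). Myf6 was thus lower on both bitransgenic arrays, while its relative Myog overlapped. The median log2 difference was -1.78 for 29 sarcomere genes, -1.97 for 19 calcium and excitation genes and -1.83 for 19 energy genes. It was -0.51 for 17 membrane and junction genes and -0.85 for 17 regulators. The brightest genes of these lists are also made outside muscle. Aldoa, an enzyme of glycolysis, read 22743 and 19579 against 14347 and 16995, and Atp2a2, the calcium pump of slow fibres and of most other cells, read 7032 and 7054 against 9050 and 8503. Satellite cell genes were dim, with Pax7 at 2.90 to 34.3 and Myf5 at 3.30 to 25.9.

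Marker lists of other cells were read beside the muscle genes. Among all genes tested, 24.9% had both wild type arrays above both bitransgenic arrays. At an unadjusted limma p under 0.05, 9.76% of them were lower and 6.91% higher. For fat cells, which lie between dermis and muscle, all 8 genes on the array were higher on both wild type arrays than on both bitransgenic arrays, but none passed (5 at an unadjusted p under 0.05). Their summed signal was 30022 and 17029 in wild type, against 8455 and 10696 in bitransgenic skin, against 408456 and 152146, and 48343 and 55081, for the 40 muscle genes. For fibroblasts, 7 of 10 had wild type above, with sums of 150743 and 126089 against 68793 and 88506, and none passed (5 at an unadjusted p under 0.05). For nerve and Schwann cells, 4 of 5 had wild type above, with sums of 16885 and 11818 against 3871 and 7137, and none passed (4 at an unadjusted p under 0.05). The part of fat, fibroblast or nerve cells, and of how deep each piece of skin was cut, in the muscle result was not tested.

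Smooth muscle, as in vessel walls and the muscles that raise hairs, had overlapping sums of 19842 and 14922 against 13781 and 16597. None of its 10 genes passed (1 lower at an unadjusted p under 0.05), and Acta2, smooth muscle actin, read 7988 and 6517 against 7497 and 8781. Heart muscle genes were dim, with sums between 574 and 984. Of the 10 heart genes, 4 (Myh6, Tnni3, Myl7 and Nppa) had no signal above 46.9, below the filter on all 4 arrays. Log2 differences of the 10 ran from -0.99 to 1.21, and 7 overlapped between the genotypes. Of the 5 heart genes tested, 1 was higher at an unadjusted p under 0.05 and 0 lower. Endothelial sums lay between 3640 and 5123 and overlapped, with 1 of 8 genes lower at an unadjusted p under 0.05. Blood cell sums were 7211 and 4836 against 10591 and 16662, led by the macrophage lysozyme gene Lyz2, and 2 of the 5 genes tested were higher at an unadjusted p under 0.05. Keratinocyte sums were 125404 and 140635 against 116649 and 165411, with Krt14, the keratin of the basal layer, at 22719 and 29412 against 25491 and 36168, and 1 of 10 keratinocyte genes was lower and 1 higher at an unadjusted p under 0.05. Bright keratin and collagen genes on all 4 arrays matched the skin label. No marker gene of any list passed limma's threshold. Over all genes tested, 9.76% were lower and 6.91% higher at an unadjusted limma p under 0.05. A count of 1 in 8 or 10 genes lies near these shares.

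**Figure D4:**
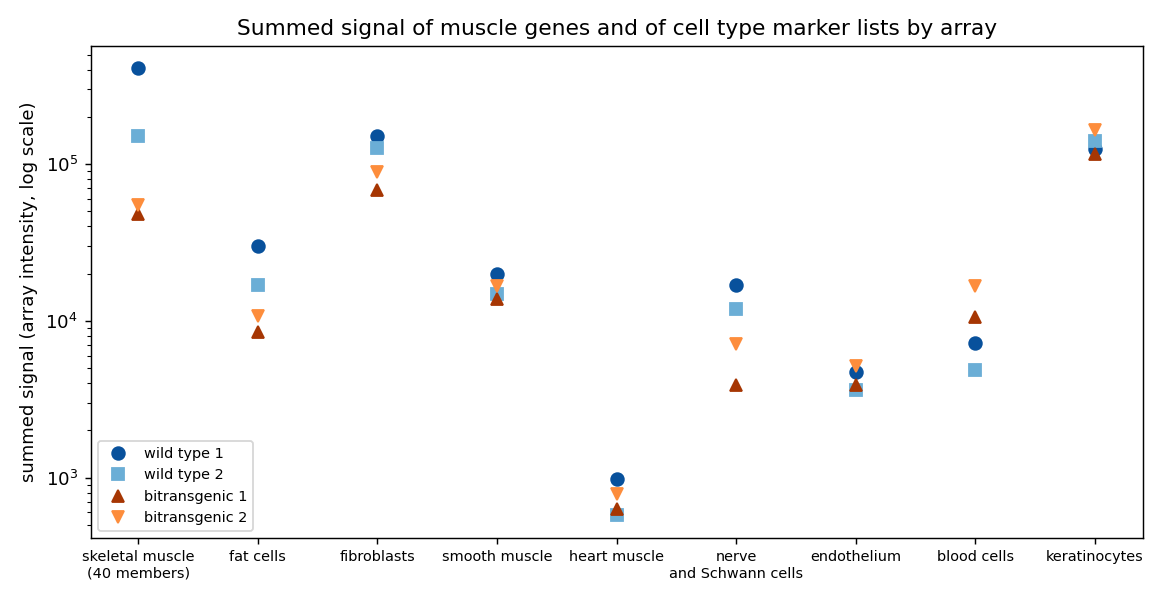
Summed signal (array intensity, log axis) of the 40 muscle genes and of each marker list, 1 marker per array. The muscle sum runs from 408456 in wild type 1 to 48343 in bitransgenic 1, fat, fibroblast and nerve sums are also higher on both wild type arrays, and smooth muscle, heart, endothelium and keratinocyte sums overlap.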

How the data were processed

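Single-colour arrays measured skin RNA of 4 mice, 2 per genotype. The deposited values are probe set signals on a linear intensity scale, and per the submitters' processing notes they were made with MAS5 and affy. Versions and genome build: not given in the sources used here. Gene names came from the platform annotation, and control probe sets (64 of 45101) were left out of the tests. Signals were taken as log2(signal + 16) with no further normalization. Probe sets were kept at or above the 40th percentile of the mean over the 4 arrays (6.19, a signal of 57.0), and the brightest stood for its gene. The genotype test was limma 3.58.1 under R 4.3.3 (intensity trend, Benjamini-Hochberg over 13070 genes, threshold 0.05, with 2 residual and 4.45 prior degrees of freedom), a fit checked on simulated data. Class medians used all 40 genes, filter or not. The number of arrays limits the precision. All 40 genes are named, with values by array for the brightest and the extreme ones of each class and for those that passed. Of the other lists, genes past the threshold and the brightest are named, with a few defining markers chosen after their values were seen. Members and lists were chosen with earlier results of these data known. Alternatives were other pseudocounts, filters, normalizations, probe set rules, the eBayes trend, the replicate number as a block, and leaving out each array.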

Additional observations from a re-analysis of the deposited data

How the results depend on the processing

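No muscle gene rose under any alternative tried. The number of muscle genes that fell (9) was the same with pseudocounts of 1 and 64, a filter at the 60th percentile, quantile normalization, and with _x_at and _s_at probe sets left out. It was 2 with no filter on dim probe sets, 2 with no intensity trend, 15 with equal array medians and 5 with the mean of the kept probe sets per gene. Leaving out 1 array gave 1 to 31. The number of probe sets that fell (2) was 0 with no filter or no intensity trend, 1 with quantile normalization, and 3 to 43 with 1 array left out. With replicate number as a block, 21 genes and 26 probe sets fell, while the share of all genes that fell went to 3.35% and of all probe sets to 2.18%. The labels do not say what the numbers share, and the deviations of same-numbered arrays correlated at 0.21 over genes. Same-numbered arrays had opposite patterns of Eif2s3y and Xist.

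The median log2 difference of the 40 genes ran from -3.30 to -1.49 with 1 array left out, that of the fast forms from -3.90 to -2.26, of the shared genes from -3.79 to -1.60, of the slow forms from -0.74 to -0.30, of the developmental myosins from -1.91 to -0.32, and fast minus slow from -3.58 to -1.53. The median of the 2 transcription factors ran from -1.46 to 0.077. With 1 array left out, Tnnt1 ran from -1.59 to 0.29 (above 0 without wild type 1) and Myog from -0.76 to 0.63 (above 0 without wild type 1 and, at 0.45, without bitransgenic 1). Direction also turned for Myog with equal array medians (0.014) and for Tpm2 with the mean of its probe sets (-0.58). The cause was not tested.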
